A study of Zea mays with 2 samples.

Results

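Alternative oxidase genes of maize (Zea mays) were described in endosperm, where the kernel lays down starch and storage protein, from wild type and from dek33, a defective kernel mutant, both at 15 days after pollination (DAP). Members were the genes whose deposited description reads "alternative oxidase", a rule that always takes in GRMZM2G125669 and GRMZM2G102349. It found 6 of 33283 genes. GRMZM2G125669 and GRMZM2G102349 were singled out with their values in these libraries known, so all their values are a description and carry no test. The background line of the plants and the dek33 allele are not stated in the sources used here. PyrR, the product of Dek33, is known as a reductase on the pathway to riboflavin, the precursor of the flavin cofactors FMN and FAD. The data hold 1 sample per genotype, although the labels name a triplicate design. No value therefore has a replicate error, and every comparison is between these libraries and not between the genotypes.

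Alternative oxidase is an enzyme of the inner mitochondrial membrane of plants. It takes electrons from ubiquinol and reduces oxygen to water, bypassing complex III, cytochrome c and complex IV, and it pumps no protons. Plants carry several copies of the gene, and in many species some copies are strongly induced by stress or by inhibitors of the respiratory chain while others are expressed steadily. The plastid terminal oxidase belongs to the same protein family. The description shared by the 6 members does not tell mitochondrial from plastid enzymes, and no sequence was used here to separate them.

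Values are FPKM, fragment numbers scaled for transcript length and library size, as the authors deposited them. FPKM is scaled for length, so levels of different genes can be set side by side. Ratios are log2((dek33 + 1)/(wild type + 1)), which draws the ratios of low genes toward 0. Genes were called where this ratio reached 2-fold either way and 1 or both values reached 5 FPKM, and 14348 genes met that minimum. All FPKM of a library summed to 761571 for dek33 and 672660 for wild type, and the depth in reads is unknown. Over the 21688 genes that reached 1 FPKM the median log2 ratio was 0.44, or 1.36-fold, and a ratio with this median subtracted is called centred. PyrR (GRMZM2G090068) had 6.44 FPKM in dek33 and 4.55 in wild type, which does not check the labels, since a mutant gene may still be transcribed.

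The labels give endosperm as the tissue and kernel as the source, and 13 marker genes were set beside this. The markers were taken with their values in an earlier account of these data known. Their values are therefore a description and no check of the label. All 5 endosperm markers were abundant in both libraries, from 466 to 8396 FPKM in dek33 and from 245 to 27300 in wild type. They summed to 22392 FPKM in dek33 and 56656 in wild type. Of the 5, 2 were called lower and 0 higher. Marker counts here stand beside 4.02% of all genes with 5 FPKM or more called lower and 14.8% called higher. Alpha zein A30 (GRMZM2G353268), a storage protein, had 6794 in dek33 and 27300 in wild type, and alpha zein 22A1 (GRMZM2G397687) had 8396 and 23340. Other alpha zeins, not among the markers, went the opposite way. A20, 19C2 and PMS2 had 24482, 22884 and 11333 FPKM in dek33 and were listed at 0 in wild type. The zein markers and the endosperm sum therefore do not stand for the alpha zein family. The starch synthesis gene bt2 (GRMZM2G068506), at 3700 and 1868, and the zein regulator opaque-2 (GRMZM2G015534), at 466 and 245, had higher values in dek33 and were not called. The 5 markers of embryo and oil-storing tissue summed to 489 FPKM in dek33 and 8450 in wild type, and all 5 were called lower. Oleosin ole17 (GRMZM2G480954), a coat protein of oil bodies, had 58.3 FPKM in dek33 and 922 in wild type. The 3 markers of the basal transfer layer, the maternal-facing uptake cells, summed to 163 FPKM in dek33 and 297 in wild type, and 1 of the 3 was called lower. No marker was listed at 0 in either library. These lists differed in the same libraries as the alternative oxidase values below, and their part in those values was not tested. In such bulk tissue, fewer cells of a type and less RNA per cell cannot be told apart.

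The alternative oxidase genes differed from one another in how their levels compared between the libraries. GRMZM2G125669 had 104 FPKM in dek33 and 0.551 in wild type. The summed FPKM of the other 5 members was 21.95 in dek33 and 21.94 in wild type. The gene list as a whole summed to 126 FPKM in dek33 and 22.5 in wild type, a ratio of 5.60, and without GRMZM2G125669 the ratio was 1.00. These ratios are not scaled, while the median over genes that reached 1 FPKM was 1.36-fold. The sum without GRMZM2G125669 was mostly GRMZM2G102349, at 17.2 FPKM in dek33 and 16.9 in wild type. Of all 6 members, 4 had higher deposited values in dek33 and 2 lower. Of the 6 members, 2 reached 5 FPKM in 1 or both libraries. Of these, 1 was called higher and 0 lower, against 14.8% of all genes with 5 FPKM or more called higher and 4.02% called lower. GRMZM2G125669 was chosen on this contrast, so nothing is read from that count.

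**Figure D1:**
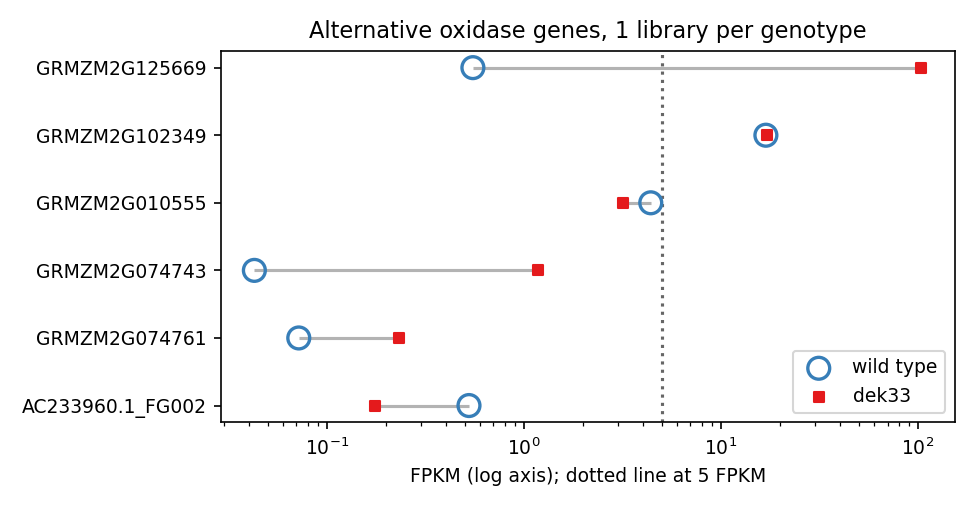
FPKM of the 6 alternative oxidase genes on a log axis, with squares for dek33 and open circles for wild type, 1 library per genotype and no error bars. GRMZM2G125669 lies at 0.551 in wild type and 104 in dek33, while the symbols of GRMZM2G102349 lie on each other near 17.

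GRMZM2G125669 lies on chromosome 2, from 12345073 to 12348033 (B73 RefGen_v3, the span of the deposited gene locus). RefSeq lists aox1 and aox2 among its synonyms. Its log2 ratio was 6.08, which is 67.7-fold on the scale with the pseudocount. The plain ratio of the deposited values was 189, and its denominator is a value under 1 FPKM of unknown precision. Centred, the log2 ratio was 5.64. Its level stood at percentile 33.6 of all 33283 genes in wild type and at percentile 97.2 in dek33.

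Among the 14348 genes with 5 FPKM or more, the log2 ratio of GRMZM2G125669 was the ninth highest, and 5 of the 8 genes above it are listed at 0 in wild type. Of these 5, 3 are alpha zeins, members of a family of close copies: A20 (AF546188.1_FG005) had 24482 FPKM in dek33, 19C2 (AF546188.1_FG007) 22884 and PMS2 (GRMZM2G008913) 11333. The alpha zeins A30 and 22A1 had 27300 and 23340 FPKM in the same wild type library. Whether a value listed at 0 is an absent transcript was not tested. The low wild type value of GRMZM2G125669 was itself above 0, and how reads were assigned among alternative oxidase copies was not tested. The zeins and the 3 other genes above GRMZM2G125669 were chosen after their values were seen. Glutathione S-transferase GSTU6 (GRMZM2G025190), a detoxifying enzyme, had a log2 ratio of 7.60. The uncharacterized genes GRMZM2G120115 and GRMZM2G468111 had log2 ratios of 6.41 and 6.19. The plot of all genes shows GRMZM2G125669 well above the diagonal and GRMZM2G102349 on it.

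**Figure D2:**
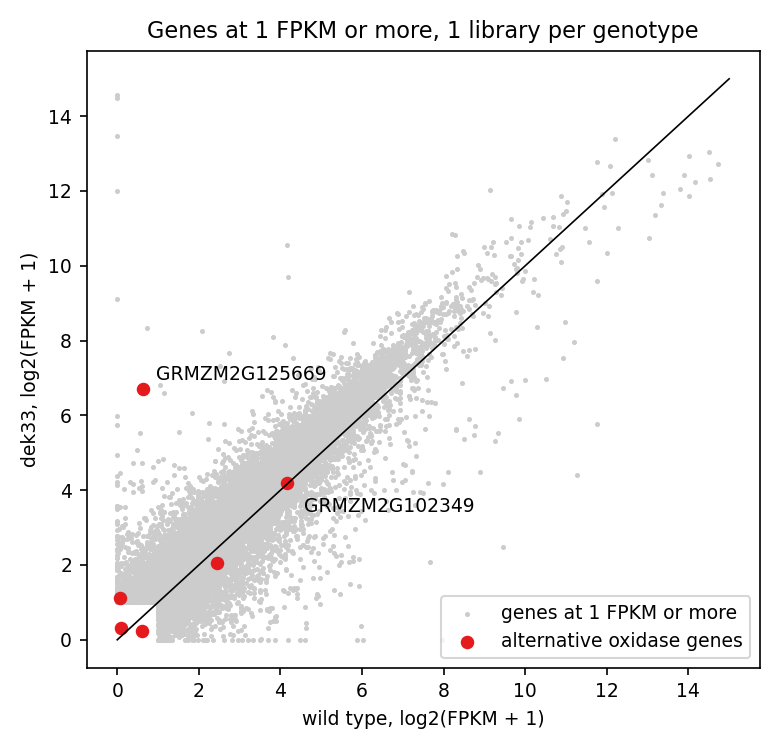
Level of each gene in dek33 (vertical axis) against wild type (horizontal axis), both log2(FPKM + 1), for the 21688 genes with at least 1 FPKM in 1 or both libraries (grey) and the 6 alternative oxidase genes (red). The line marks equal values. GRMZM2G125669 had 104 FPKM in dek33 and 0.551 in wild type, and GRMZM2G102349 had 17.2 and 16.9.

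GRMZM2G102349 was the main alternative oxidase transcript of the wild type library. It lies on chromosome 2 from 2787469 to 2790978 and had 17.2 FPKM in dek33 and 16.9 in wild type. Its log2 ratio was 0.02, and -0.42 after centring, so its sign depends on the scaling. From the highest ratio down it ranked 11930 among the 14348 genes with 5 FPKM or more.

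The paralogs GRMZM2G125669 and GRMZM2G102349 thus stood in opposite order in the libraries. In wild type GRMZM2G102349 had 30.7 times the FPKM of GRMZM2G125669. In dek33 GRMZM2G125669 had 6.06 times the FPKM of GRMZM2G102349. Their log2 ratios differed by 6.06, or 66.7-fold, and a scaling factor common to all genes of a library has little effect on this difference. GRMZM2G102349 made up 75.1% of the summed alternative oxidase FPKM in wild type and 13.6% in dek33. GRMZM2G125669 made up 2.45% in wild type and 82.6% in dek33.

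GRMZM2G010555 and GRMZM2G102349 were the members with at least 1 FPKM in both libraries. GRMZM2G010555 lies on chromosome 2 from 2680126 to 2689950 and had 3.19 FPKM in dek33 and 4.40 in wild type, a log2 ratio of -0.37. It stayed under the minimum of 5 FPKM and was not called. It held 19.6% of the summed FPKM in wild type and 2.53% in dek33. GRMZM2G102349 exceeded it 3.84-fold in wild type and 5.39-fold in dek33. It is the next gene to GRMZM2G102349 in the deposited loci, with 97.5 kb between them and 0 listed genes in that gap.

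The remaining 3 members were low in both libraries. GRMZM2G074743, for which RefSeq lists the synonym aox3, had 1.18 FPKM in dek33 and 0.0428 in wild type, on chromosome 2 from 12274611 to 12276371. GRMZM2G074761 had 0.233 FPKM in dek33 and 0.0720 in wild type, on chromosome 2 from 12305901 to 12307494. AC233960.1_FG002, the only member outside chromosome 2, had 0.176 FPKM in dek33 and 0.526 in wild type, on chromosome 5 from 200032552 to 200035241. The first pair thus had higher deposited values in dek33 and the last a lower one, all at levels whose precision is unknown. GRMZM2G074743 had a log2 ratio of 1.06, but its plain ratio of 27.5 rests on a wild type value near 0. RefSeq has no match by ID for AC233960.1_FG002, and it is described by that ID.

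The order of levels differed between the libraries. In dek33 it ran from GRMZM2G125669 through GRMZM2G102349, GRMZM2G010555, GRMZM2G074743 and GRMZM2G074761 to AC233960.1_FG002. In wild type it ran from GRMZM2G102349 through GRMZM2G010555, GRMZM2G125669, AC233960.1_FG002 and GRMZM2G074761 to GRMZM2G074743. With 1 value per gene and library, no spread shows which neighbours in these orders differ. GRMZM2G125669 and AC233960.1_FG002 were neighbours in wild type, at 0.551 and 0.526 FPKM. Members with at least 1 FPKM numbered 4 in dek33 and 2 in wild type.

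GRMZM2G125669, GRMZM2G074761 and GRMZM2G074743 are consecutive genes on chromosome 2, within 73.4 kb and with 0 other listed genes between them. RefSeq's gene order on the NAM-5.0 assembly likewise places 0 protein-coding genes between neighbours of this trio. All 3 had higher deposited values in dek33, with log2 ratios of 6.08, 0.20 and 1.06. Centred, GRMZM2G074761 was at -0.24. The neighbours outside the trio differed less than GRMZM2G125669. GRMZM2G125679, 1.82 kb beyond its end, had 0.701 FPKM in dek33 and 0.929 in wild type. GRMZM2G125704, a G2-like transcription factor gene, had 0.811 and 0.583. On the other side, GRMZM5G856943, 1.09 kb from GRMZM2G074743, had 36.5 FPKM in dek33 and 18.03 in wild type and was not called. Copies of a gene family can exchange reads where their sequences are close. How much of the values of GRMZM2G074743 and GRMZM2G074761 could come from GRMZM2G125669 was not tested.

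**Figure D3:**
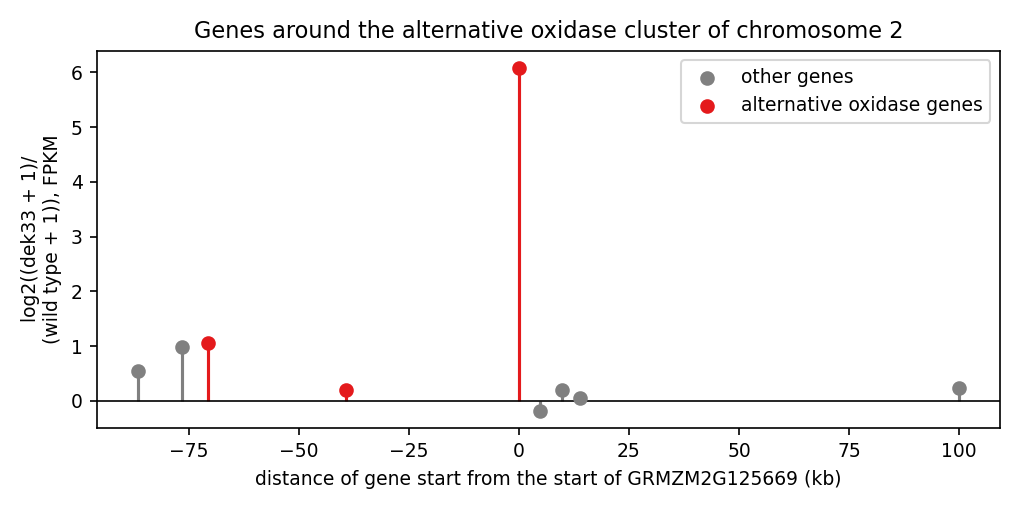
log2((dek33 + 1)/(wild type + 1)) of the 9 genes that start within 100 kb of the start of GRMZM2G125669, by the distance of their starts in kb. Alternative oxidase genes are red and other genes grey, with 1 library per genotype. GRMZM2G125669 reaches 6.08, and GRMZM2G074743, the next highest, 1.06.

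Taking the nearest pair of listed genes on each side of every member, 12 distinct genes were not themselves alternative oxidases, and 5 of them reached 5 FPKM. Of these, 0 were called higher and 0 lower, beside backgrounds of 14.8% and 4.02%. GRMZM5G856943 and GRMZM2G108996 lay just inside the 2-fold limit, with log2 ratios of 0.98 and -0.98. GRMZM2G108996 has the same deposited locus as GRMZM2G108829, also among the 5. The most abundant neighbour was GRMZM2G102471, a ubiquitin-conjugating enzyme gene, 17.2 kb from GRMZM2G102349, with 1580 FPKM in dek33 and 946 in wild type. Next to AC233960.1_FG002, the uncharacterized gene AC233960.1_FG003 had 0.242 FPKM in dek33 and 1.46 in wild type. No deposited locus of another gene overlapped that of any of the 6 members.

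Genes with a pattern like that of GRMZM2G125669 were sought among the 14308 other genes with 5 FPKM or more in 1 or both libraries and listed above 0 in both. Likeness was the Euclidean distance between pairs of log2(FPKM + 1) values over the 2 libraries. The nearest was the uncharacterized gene GRMZM2G111482, at a distance of 0.44, with 111 FPKM in dek33 and 1.08 in wild type. GRMZM2G169329, also uncharacterized, followed at 0.52 with 95.7 FPKM in dek33 and 1.21 in wild type. GRMZM2G068513, which has no description, was at 1.19 with 45.1 and 0.474. The fourth was a gene of TIM14, a subunit of the motor that draws proteins into the mitochondrial matrix (GRMZM2G029385), at 1.38 with 65.4 and 2.58. The fifth was IN2-1 (GRMZM2G042639), a gene known in maize for its induction by herbicide safeners, at 1.45 with 46.2 and 1.86. With only 2 libraries, such likeness says no more than that both values are close.

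GRMZM2G102349 had many close neighbours in this sense. The 5 nearest genes lay at distances of 0.01 to 0.03. Among them was a tRNA pseudouridine synthase gene (GRMZM2G100497), which modifies transfer RNA, with 17.5 FPKM in dek33 and 16.9 in wild type. GRMZM2G410782, a VHS/GAT domain gene, had 17.5 and 16.7. The other 3, GRMZM2G004397, GRMZM2G064841 and GRMZM2G083156, have no informative description and had 16.9 to 17.3 FPKM in dek33.

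In the genes that share the respiratory chain with alternative oxidase, all 57 with 5 FPKM or more had higher deposited values in dek33 than in wild type, and 0 reached the log2 ratio of GRMZM2G125669. Of all 14348 genes with 5 FPKM or more, 83.9% had higher deposited values in dek33. Centred, 51 of the 57 were above 0, or 89.5%, against 56.9% of all such genes. Uncentred counts that follow stand beside 14.8% of all genes called higher and 4.02% called lower. Centred counts stand beside 4.4% and 6.79%. The median log2 ratio over all genes with 5 FPKM or more was 0.52. Cytochrome c and complexes III and IV form the route that alternative oxidase bypasses. Of 24 such genes with 5 FPKM or more, out of 37 matched, 9 were called higher, 0 lower and 15 neither, and the median log2 ratio was 0.91. After centring, 4 were higher and 0 lower, beside backgrounds of 4.4% and 6.79%. These 4 included a copper chaperone gene, described next, and a cytochrome c oxidase subunit 2 gene just over the minimum. The latter (GRMZM2G109332), outside the rule for named genes, had 5.10 FPKM in dek33 and 1.11 in wild type. It lies on chromosome 9, while GRMZM5G862955, with the same description, lies on the mitochondrial chromosome. How reads were assigned between such copies was not tested. A cytochrome c oxidase copper chaperone (GRMZM2G010933), which delivers copper to complex IV, had the highest log2 ratio of this list, 2.22, with 20.5 FPKM in dek33 and 3.61 in wild type. A cytochrome c gene (GRMZM2G070199), the soluble electron carrier, had 64.2 and 17.5. The most abundant member was a small subunit of complex III (GRMZM2G158304), with 294 and 103. At the low end, subunit 6 of the cytochrome b-c1 complex (GRMZM2G122039) had 9.24 and 6.90, and another small subunit of complex III (GRMZM2G064896) 64.0 and 47.3.

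Complexes I and II feed electrons into the ubiquinone pool from which alternative oxidase draws. Of 21 genes with 5 FPKM or more, out of 29 matched, 4 were called higher, 0 lower and 17 neither, with a median log2 ratio of 0.72. After centring 0 were called in either direction. The 13 kDa-like subunit of complex I (GRMZM2G059556) had the highest log2 ratio, 1.25, with 83.4 FPKM in dek33 and 34.4 in wild type. The 23 kDa subunit (AC195340.3_FG002), the most abundant, had 203 and 91.0. The B16.6 subunit (GRMZM2G070716) had 68.3 and 60.5, and a 20 kDa subunit (GRMZM2G069061) 27.7 and 23.4, the lowest log2 ratios of the list.

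ATP synthase makes ATP from the proton gradient that alternative oxidase does not feed. Of 12 genes with 5 FPKM or more, out of 18 matched by descriptions that do not always name the organelle, 7 were called higher, 0 lower and 5 neither, and the median log2 ratio was 1.03. That median lies at the 2-fold limit, and after centring 0 were called in either direction. The D chain (GRMZM2G157018) was the most abundant, with 432 FPKM in dek33 and 213 in wild type. A gene described as rotational ATP synthase (AC194341.4_FG002) had 162 and 59.5, and the B chain (GRMZM5G825759) 13.6 and 4.54. The lowest log2 ratios were 0.55 for GRMZM2G131575, with 12.5 and 8.27, and 0.63 for the epsilon chain (GRMZM2G143234), with 143 and 91.8.

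The list of cytochrome c and complexes III and IV summed to 1862 FPKM in dek33 and 925 in wild type, a ratio of 2.01. The alternative oxidase sum equalled 6.77% of it in dek33 and 2.43% in wild type. Against the complex I and II list, the oxidase sum equalled 8.43% in dek33 and 2.61% in wild type. These shares do not depend on library scaling. Their difference follows from GRMZM2G125669, which was singled out with its values known, and adds no support to its own ratio.

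Mitochondrial import, prohibitin and chaperone genes were also listed, because several are known in Arabidopsis to be induced together with alternative oxidase when mitochondria are disturbed. Of 31 with 5 FPKM or more, out of 36 matched, 22 were called higher, 0 lower and 9 neither, with a median log2 ratio of 1.12. After centring 8 were higher and 0 lower, beside backgrounds of 4.4% and 6.79%. A TIM14 gene (GRMZM2G029385) had the highest log2 ratio, 4.21. Other TIM14 genes of the list, GRMZM2G040587 and GRMZM2G038950, had log2 ratios of 0.54 and 0.68 and were not called. They too were named outside the rule. Prohibitin complex protein 2 (AC217358.3_FG005), part of a ring complex of the inner membrane and the most abundant member, had 299 FPKM in dek33 and 46.2 in wild type. Outside the rule for named genes, and chosen after its values were seen, another prohibitin gene (GRMZM2G107114) had 203 and 35.9. The lowest log2 ratios were those of a peroxisomal Lon protease (GRMZM2G109560), 11.9 and 9.91, and of a plastidic dicarboxylate transporter (GRMZM2G086258), 26.7 and 20.4. Neither protein is mitochondrial. The list held 4 members whose description names another place or function, and without them 22 of 28 were called higher. The members described as chaperones, the BCS1 genes GRMZM2G175593 and GRMZM6G704070, share a deposited locus and were under the minimum. No gene so described is therefore in these counts.

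**Figure D4:**
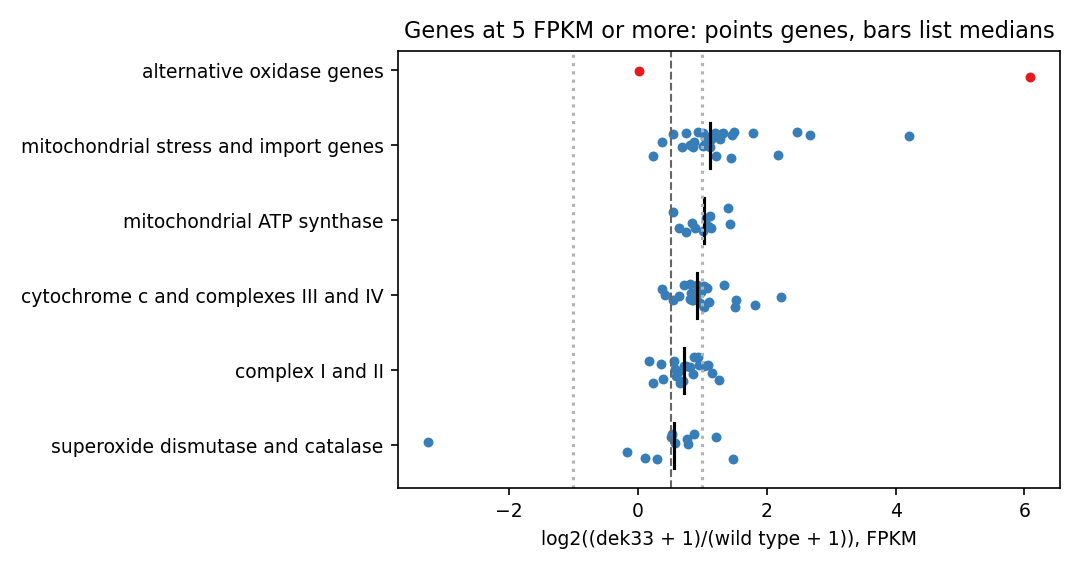
log2((dek33 + 1)/(wild type + 1)) of genes with 5 FPKM or more in 1 or both libraries, by list, 1 point per gene, with the vertical position within a row arbitrary. Black bars are list medians (0.55 to 1.12), the dashed line is the median of all such genes (0.52) and the dotted lines mark 2-fold. GRMZM2G125669 stands alone at 6.08, beyond the highest point of every other list, 4.21.

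Superoxide dismutases and catalases remove reactive oxygen species, which an over-reduced respiratory chain produces. Of 12 with 5 FPKM or more, out of 13 matched, 2 were called higher, 1 lower and 9 neither, and the median log2 ratio was 0.55, close to that of all genes. The mitochondrial manganese superoxide dismutase 3.1 (GRMZM2G059991) had 201 FPKM in dek33 and 86.0 in wild type. Another superoxide dismutase gene (GRMZM2G042080) had 24.7 and 8.27. Catalase isozyme 2 (GRMZM2G090568) went the other way, with 0.532 FPKM in dek33 and 13.6 in wild type, in the same libraries in which all 5 embryo and oil-storing markers were lower. Whether these are linked was not tested. The copper and zinc superoxide dismutase 4A (GRMZM2G169890) had 73.5 and 83.0.

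The remaining lists held little. Uncoupling proteins, carriers that dissipate the proton gradient, had 1 match (GRMZM2G165629), with 2.05 FPKM in dek33 and 1.57 in wild type, under the minimum. The descriptions matched 0 genes for alternative NAD(P)H dehydrogenases, which feed the same ubiquinone pool without pumping protons, and 0 for plastid terminal oxidase. These genes are not analysed here.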

How the data were processed

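RNA of maize endosperm was sequenced from dek33 and wild type kernels, and groups follow the genotype label. FPKM values were used as deposited by the authors, with 1 value for each gene in each genotype. The submitters' processing notes name Bowtie 0.12.2 and the B73 RefGen_v3 assembly. The program that computed FPKM, its annotation and filters, strand use, and the handling of replicates and of reads shared by paralogs are not stated there or in the labels. A value of 1e-05 stands in the place of 0. Read counts could not be recovered: among 4314 genes under 0.3 FPKM in both libraries, the fullest bin of 0.05 log2 units held 2.20% of ratios, so no counting interval or floor is given.

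Locus starts were raised by 1, after which 77.9% of 610 short predicted models spanned a multiple of 3 bases, against 10.7% without. RefSeq names (NAM-5.0 table) were matched by ID for 5 of the 6 members; no NAM-5.0 coordinate is printed. The pathway lists were matched on descriptions. The members, lists, markers and named genes were chosen with earlier results of these data known. Named genes were all members, 2 neighbours on each side, the 5 nearest genes in level to each of 2 members, and in each list 2 genes from either end of the ratios with the most abundant one. With 1 sample per genotype there is no test and no p-value. Alternatives were other pseudocounts, minimums, fold limits and scalings (trimmed mean of M values, upper quartile, totals without zeins, centring). The calling rule was tested on simulated data. That simulation changed only abundant genes, by a large factor. It does not cover values under 1 FPKM or reads shared by paralogs. Python 3.11.15, numpy 2.4.6, pandas 2.3.3 and matplotlib 3.10.9 were used.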

Additional observations from a re-analysis of the deposited data

How the results depend on the processing

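GRMZM2G125669 was called higher under every alternative tried, with a log2 ratio of 7.32 at a pseudocount of 0.1 and 4.30 at 5, and between 5.60 and 5.64 under the 4 scalings. Its difference from GRMZM2G102349 was 7.30 and 4.28 at those pseudocounts, which act on its low wild type value by construction. GRMZM2G102349 had a log2 ratio of -0.40 to -0.44 under the scalings. Without a minimum, 2 alternative oxidase genes were higher, the second being GRMZM2G074743. GRMZM2G074743 had a log2 ratio of 3.16 and AC233960.1_FG002 one of -1.18 at a pseudocount of 0.1. The share of GRMZM2G125669 was 82.8% in dek33 and 2.51% in wild type over members with at least 1 FPKM in 1 or both libraries.

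Counts of higher genes are given in the order cytochrome c and complexes III and IV, complex I and II, ATP synthase, stress and import, dismutases and catalases. Before any scaling these lists held 24, 21, 12, 31 and 12 genes with 5 FPKM or more. Counts over all genes under the same settings are in the next paragraph. The list counts were 4, 0, 0, 8 and 1 centred, 3, 0, 0, 7 and 1 by trimmed mean, 3, 0, 0, 8 and 1 without zeins, 3, 0, 0, 6 and 1 by upper quartile, and 1, 0, 0, 4 and 0 at a 4-fold limit. At a pseudocount of 5, cytochrome c and complexes III and IV had 4 and ATP synthase 4. Lower dismutases and catalases numbered 0 at a minimum of 20 FPKM, which leaves out catalase isozyme 2.

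Over all genes, higher and lower counts of 2118 and 577 became 632 and 974 centred, 555 and 936 by trimmed mean, 575 and 919 without zeins, 542 and 955 by upper quartile, 1038 and 347 at a pseudocount of 5, 1203 and 247 at 20 FPKM, and 219 and 196 at 4-fold. Without a minimum 894 were lower. Alternatives without the 4 other list members or without genes listed at 0, added after seeing the data, moved no count by over 1.5 times. No paired analysis was possible because there is only 1 sample of either genotype. Unknown depth limits every value under 1 FPKM.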
